A study of Mus musculus with 35 samples.

Results

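The lipid-associated macrophage genes described here are *Trem2*, *Tyrobp*, *Spp1*, *Gpnmb*, *Lgals3*, *Fam20c*, *Vsig8*, *Sulf2* and *Itgax*. These 9 were taken by symbol from a count table of 54735 symbols, and all 9 were among the 13421 genes that passed a filter on low counts (above a scaled count, CPM, of 1 in at least 5 samples). *Vsig8* passed through WD samples alone. The 35 samples were bulk RNA-seq libraries of macrophages (macs) sorted from the livers of male C57Bl/6J mice, with no transgene or allele named in the labels. Mice received a standard diet (SD) or a Western diet (WD) rich in fat and cholesterol, with sugars (sucrose and fructose) added to their water, from 5 weeks of age. Resident Kupffer cells (ResKCs) were sorted as CLEC4F+TIM4+ cells after 12 weeks (SD, n = 7; WD, n = 5) or 24 weeks (SD, n = 6; WD, n = 6). From mice given WD for 24 weeks, monocyte-derived Kupffer cells (moKCs; CLEC4F+TIM4-, n = 5) and CLEC4F-TIM4- macs (CLEC4F- macs, n = 6) were also sorted. For the 5 WD samples at 12 weeks, the diet field of the labels reads standard diet while their titles and descriptions read Western diet, and the titles were followed. The labels do not say which samples came from separate mice or which populations came from the same mouse, so the spread given here is that between samples.

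The 9 genes were chosen by their CPM across these 6 groups, the same values that are described below. Their differences between groups are therefore given as a description, with fitted values and standard errors but no p-value. Counts of the 9 past a call rule are printed beside the share of all genes past it, as a description from which nothing is read in any comparison. Test results of single genes are given only for companion genes. Their lists were also chosen with earlier results of these data known, so those results are no independent support. Libraries held 11568590 to 15163845 counts. CPM (counts scaled to a common library size) were computed with TMM, a normalisation that sets libraries on a common scale. The read alignments named in the file headers followed 2 naming schemes, whose meaning is not stated in the sources used here, of which the first covered 22 samples and the other scheme 13. All WD ResKCs at 12 weeks and all SD ResKCs at 24 weeks carried names of the first kind, whereas the remaining groups held both.

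Lipid-associated macrophages are cells found in fatty liver, adipose tissue and other lipid-rich sites that take up and break down lipid and dying cells. The receptor TREM2 binds lipids and lipoproteins, and it passes its signal to the kinase SYK through the adaptor TYROBP (DAP12). Many of the other genes in the program encode secreted or surface proteins, among them osteopontin, encoded by *Spp1*, which binds integrins and CD44. Resident Kupffer cells are seeded before birth and maintain themselves in the liver sinusoids, whereas recruited macrophages derive from blood monocytes.

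The genes lie on 7 chromosomes of mm10 (GENCODE M21 coordinates). *Trem2* spans 48346401 to 48354147 on the plus strand of chromosome 17, and *Tyrobp* spans 30413760 to 30417585 on the plus strand of chromosome 7, which also carries *Itgax* at 128129547 to 128150657. *Spp1* (104435118 to 104441050) and *Fam20c* (138754514 to 138810077) both lie on the plus strand of chromosome 5. *Gpnmb* is at 49036546 to 49070929 on chromosome 6, *Lgals3* at 47367751 to 47386160 on chromosome 14 and *Vsig8* at 172555938 to 172563717 on chromosome 1, all on the plus strand. *Sulf2*, at 166073089 to 166155663 on chromosome 2, is the 1 gene on the minus strand. *Sulf2* overlaps *Ncoa3* and *Vsig8* overlaps *4933439K11Rik* on the opposite strand. Whether strand was used in counting is not given in the sources used here, so reads from either partner could not be told apart. *Spp1* shares its strand with the annotated transcript *Gm42793*.

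Promoter windows from 250 bases before to 50 bases after the start were found in RefSeq (GRCm38.p6) for 8 of the 9 genes, with 11 windows in all; *Tyrobp* had no entry. Each window was searched on both strands for the letters TGANTCA, bound by AP-1 factors, GGAAGT, a core bound by ETS factors such as PU.1, and CACGTG, bound by the MiT/TFE factors. Pairs of AGGTCA with 1 or 4 bases between them, the form bound by PPAR and LXR with RXR, were searched too. TGANTCA was present in the windows of *Trem2*, *Gpnmb* and *Itgax* and in 7.81% of all 32851 promoter windows. GGAAGT was present for *Itgax*, for 1 of 2 windows of *Spp1* and for both windows of *Vsig8*, against 23.8% of all windows. None of the 11 windows held CACGTG (7.15% of all windows), AGGTCA pairs with 1 base between (0.0396%) or AGGTCA pairs with 4 bases between (0.0152%). The windows below are those of the 3 genes with TGANTCA and of *Spp1*, the gene that differed most between the sorted populations. Bases are in lower case, with TGANTCA and GGAAGT matches on either strand in capitals.
Trem2, chr17:48346151-48346450, plus strand: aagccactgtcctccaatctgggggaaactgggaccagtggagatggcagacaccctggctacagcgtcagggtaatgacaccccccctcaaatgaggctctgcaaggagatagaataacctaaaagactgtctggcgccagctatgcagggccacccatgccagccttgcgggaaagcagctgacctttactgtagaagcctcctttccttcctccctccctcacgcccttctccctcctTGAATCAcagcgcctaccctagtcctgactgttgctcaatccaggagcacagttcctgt
Gpnmb, chr6:49036268-49036567, plus strand: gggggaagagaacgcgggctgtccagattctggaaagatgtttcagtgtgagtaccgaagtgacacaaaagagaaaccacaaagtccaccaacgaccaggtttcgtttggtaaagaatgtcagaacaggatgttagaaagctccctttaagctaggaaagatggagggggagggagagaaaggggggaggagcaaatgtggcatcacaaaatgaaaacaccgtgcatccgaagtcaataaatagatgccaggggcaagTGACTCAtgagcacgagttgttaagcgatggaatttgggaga
Itgax, chr7:128129300-128129599, plus strand: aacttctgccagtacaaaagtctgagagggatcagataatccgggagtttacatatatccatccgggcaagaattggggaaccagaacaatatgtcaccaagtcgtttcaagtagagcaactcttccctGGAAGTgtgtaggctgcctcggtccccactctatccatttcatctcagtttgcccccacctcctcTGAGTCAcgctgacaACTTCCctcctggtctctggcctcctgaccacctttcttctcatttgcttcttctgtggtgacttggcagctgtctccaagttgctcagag
Spp1, chr5:104434861-104435160, plus strand: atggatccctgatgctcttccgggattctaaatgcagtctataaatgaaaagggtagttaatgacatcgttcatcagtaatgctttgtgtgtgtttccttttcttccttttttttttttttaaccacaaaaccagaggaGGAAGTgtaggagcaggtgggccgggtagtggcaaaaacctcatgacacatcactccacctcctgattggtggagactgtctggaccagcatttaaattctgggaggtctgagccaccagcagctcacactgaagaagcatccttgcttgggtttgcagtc
With the start base counted as 0, TGANTCA ran from -9 to -3 for *Trem2*, from 8 to 14 for *Gpnmb* and from -56 to -50 for *Itgax*. These matches are a description of letters and were not tested as binding sites.

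**Figure D1:**
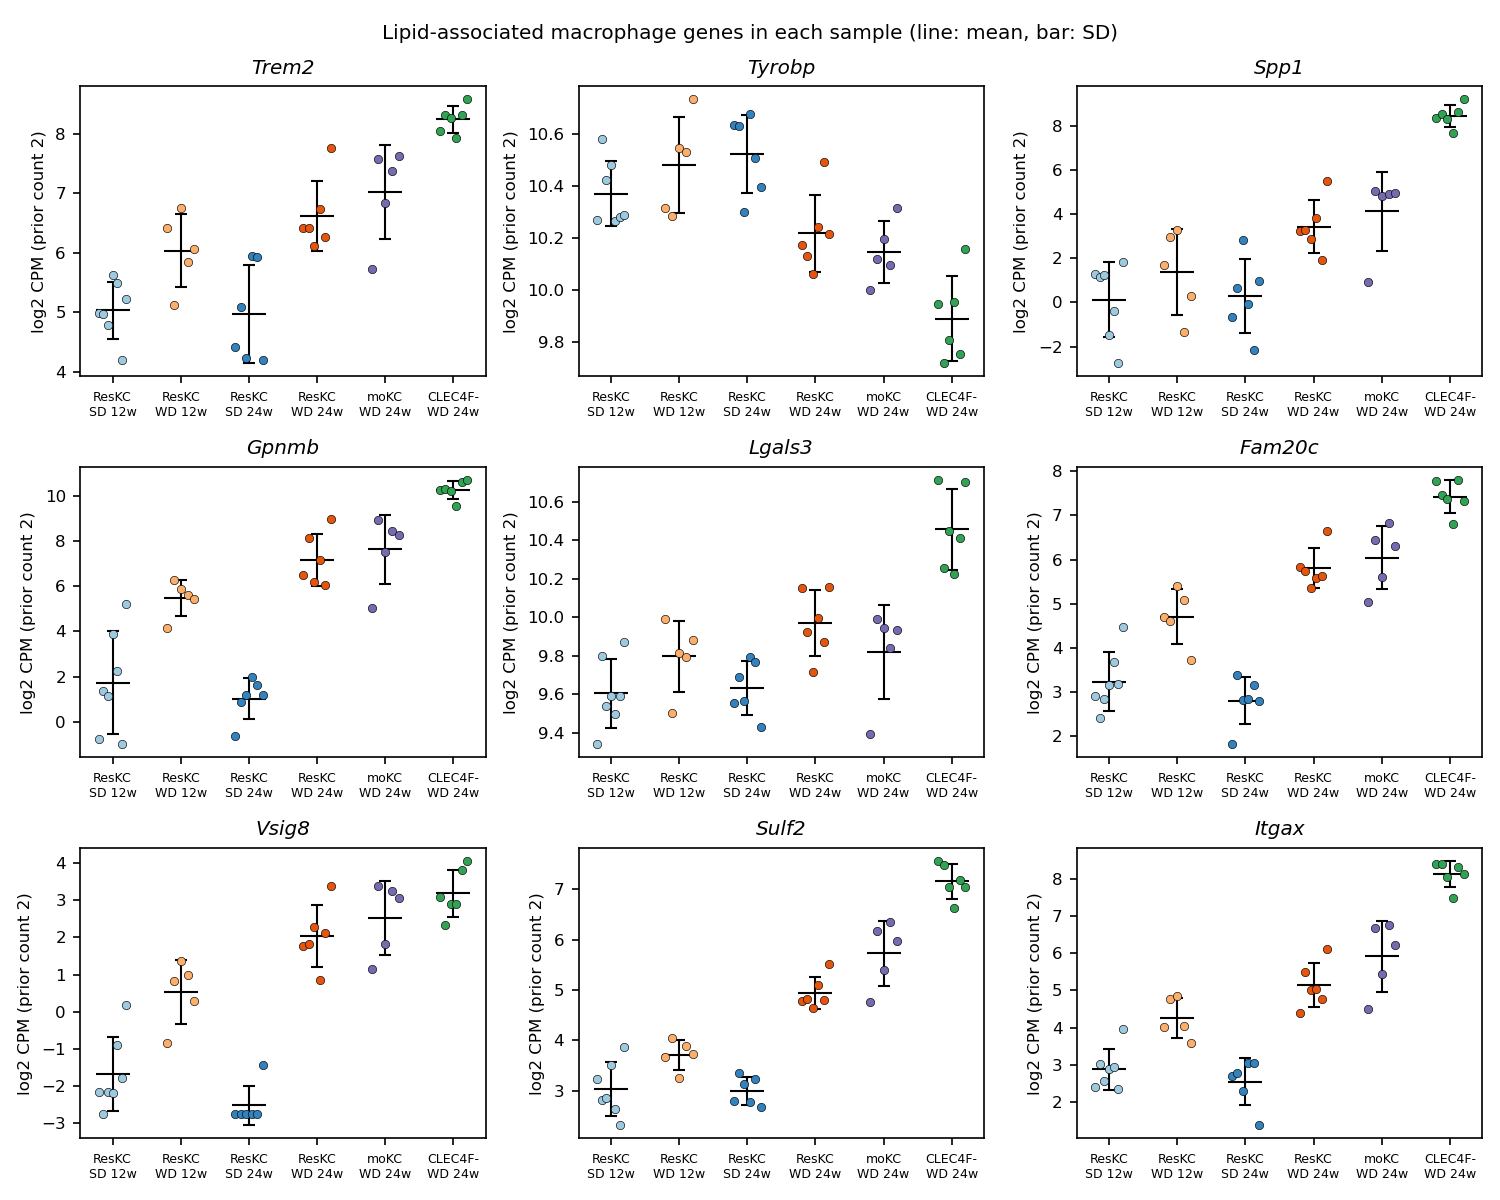
Level of each lipid-associated macrophage gene (log2 CPM, with a prior count of 2 added) in each of the 35 samples, by group. Points are samples, the line is the mean and the bar is the SD. Samples of CLEC4F- macs lay highest for 8 of 9 genes by group mean, whereas *Tyrobp* was lowest there, from 1479 CPM in SD ResKCs at 24 weeks down to 953 CPM in CLEC4F- macs.

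*Trem2*, the lipid-sensing receptor, had a mean of 34.1 ± 10.5 CPM in SD ResKCs at 12 weeks (SD, n = 7; lowest 18.1, median 31.4, highest 49.2). In WD ResKCs at 12 weeks the 5 samples held 85.3, 34.6, 108, 57.2 and 66.4 CPM. At 24 weeks SD ResKCs ran from 18.1 through a median of 27.5 to 61.8 CPM (n = 6), and WD ResKCs from 69.2 through 85.6 to 216 CPM (n = 6). Every WD sample thus lay above every SD sample at 24 weeks, while 12-week groups overlapped. The moKCs held 53.0, 191, 114, 166 and 197 CPM, and CLEC4F- macs ran from 244 through 314 to 383 CPM (n = 6). CLEC4F- macs did not overlap with any other group, and moKCs and WD ResKCs overlapped.

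*Tyrobp*, the adaptor through which TREM2 signals, was expressed at a high level over a narrow range, with the WD populations at 24 weeks in the opposite order. It had 1328 ± 119 CPM in SD ResKCs and 1439 ± 186 CPM in WD ResKCs at 12 weeks (SD, n = 7 and 5), and 1479 ± 150 and 1196 ± 129 CPM at 24 weeks (SD, n = 6 each). The WD samples at 24 weeks ran from 1067 through a median of 1170.3 to 1439 CPM, so that they overlapped with the SD samples (1262 through 1519.8 to 1635 CPM). The 5 moKC samples held 1023, 1113, 1173, 1093 and 1274 CPM, and CLEC4F- macs had the lowest mean, 953 ± 111 CPM (SD, n = 6; lowest 842, median 940.1, highest 1142). Each neighbour in this order overlapped with the next. The receptor and its adaptor therefore did not share an order of groups.

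*Spp1* (osteopontin) was close to absent in SD ResKCs and abundant in CLEC4F- macs. SD ResKCs ran from 0 through a median of 2.11 to 3.47 CPM at 12 weeks (n = 7) and from 0.0789 through 1.13 to 7.08 CPM at 24 weeks (n = 6). WD ResKCs held 3.08, 7.65, 9.74, 0.241 and 1.08 CPM at 12 weeks and ran from 3.59 through 9.47 to 45.1 CPM at 24 weeks (n = 6). Single SD and WD samples overlapped at both times. In moKCs, 4 samples held 32.7, 28.2, 29.8 and 31.1 CPM and replicate 1 held 1.74 CPM. CLEC4F- macs ran from 205 through 358 to 598 CPM (n = 6). Their lowest sample lay well above the highest sample of any other group (45.1 CPM).

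*Fam20c*, which encodes the Golgi kinase that phosphorylates secreted proteins such as osteopontin, followed the same order of the WD groups by mean. SD ResKCs held 10.2 ± 5.67 CPM at 12 weeks (SD, n = 7; lowest 5.12, median 8.73, highest 22.0) and 7.20 ± 2.34 CPM at 24 weeks (SD, n = 6; lowest 3.37, median 6.97, highest 10.4). The WD samples at 12 weeks held 26.0, 24.1, 42.2, 33.7 and 13.1 CPM, and those at 24 weeks ran from 41.1 through 51.4 to 101 CPM (n = 6). At 24 weeks the 2 diets did not overlap. The moKCs held 32.5, 86.8, 48.5, 113 and 79.0 CPM, and CLEC4F- macs ran from 111 through 170.5 to 222 CPM, so that 1 moKC sample reached into the range of the CLEC4F- macs.

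*Gpnmb*, a glycoprotein of lysosomes and the cell surface, spanned the widest range of the abundant genes. In SD ResKCs it ran from 0.356 through 2.41 to 36.5 CPM at 12 weeks (n = 7) and from 0.491 through 2.10 to 3.75 CPM at 24 weeks (n = 6). WD ResKCs at 12 weeks held 17.4, 76.2, 58.0, 48.4 and 43.4 CPM, all above 6 of the 7 SD samples. WD ResKCs at 24 weeks ran from 66.7 through 117 to 495 CPM (n = 6), with no overlap with SD. In moKCs the samples held 33.0, 484, 181, 346 and 309 CPM. CLEC4F- macs ran from 760 through 1228 to 1651 CPM (n = 6), above every sample of the other groups.

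*Lgals3* (galectin-3, a sugar-binding lectin) was high in every group, and the groups of Kupffer cells overlapped. SD ResKCs held 784 ± 99.7 CPM at 12 weeks and 797 ± 77.4 CPM at 24 weeks, and WD ResKCs held 895 ± 109 and 1008 ± 118 CPM (SD, n = 7, 6, 5 and 6 in that order). In moKCs the samples held 672, 1019, 984, 916 and 977 CPM. CLEC4F- macs ran from 1198 through 1379 to 1679 CPM, above the highest sample of the other groups (1144 CPM).

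*Sulf2*, an extracellular sulphatase that trims heparan sulphate, had a fitted log2 fold change of 0.86 for moKCs against WD ResKCs, beside 0.90 for *Itgax*. SD ResKCs ran from 4.84 through 7.08 to 14.5 CPM at 12 weeks (n = 7) and from 6.28 through 7.73 to 10.1 CPM at 24 weeks (n = 6). WD ResKCs held 12.6, 16.5, 9.42, 14.7 and 13.03 CPM at 12 weeks and ran from 24.9 through 28.0 to 46.0 CPM at 24 weeks (n = 6), with no overlap between the 2 WD times. The moKCs held 27.1, 72.2, 42.0, 81.5 and 62.6 CPM, and CLEC4F- macs ran from 99.2 through 138 to 189 CPM. Only replicates 1 and 3 of the moKCs lay within the range of WD ResKCs.

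*Itgax*, encoding the integrin subunit CD11c, which is shared with dendritic cells, ran from 4.98 through 7.25 to 15.5 CPM in SD ResKCs at 12 weeks (n = 7) and from 2.45 through 6.56 to 8.15 CPM at 24 weeks (n = 6). The WD samples held 16.1, 26.8, 28.6, 16.2 and 12.0 CPM at 12 weeks and ran from 21.0 through 32.3 to 68.4 CPM at 24 weeks (n = 6). The moKCs held 22.4, 102, 43.3, 109 and 74.4 CPM and CLEC4F- macs ran from 179 through 298 to 336 CPM (n = 6). All CLEC4F- mac samples lay above all others. The summed level of 8 dendritic cell markers ran from 47.6 to 319 CPM in CLEC4F- macs and from 25.4 to 71.1 CPM in WD ResKCs at 24 weeks, and its part in the *Itgax* level was not tested.

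*Vsig8*, which encodes a membrane protein of the immunoglobulin superfamily, had the lowest counts. In SD ResKCs at 24 weeks, 5 of 6 samples held no read and replicate 6 held 3 reads (0.216 CPM), and at 12 weeks SD samples ran from 0 through 0.0739 to 0.993 CPM (n = 7). WD ResKCs held 0.406, 1.63, 2.43, 1.84 and 1.08 CPM at 12 weeks and ran from 1.66 through 3.79 to 10.3 CPM at 24 weeks (n = 6). The moKCs (2.07, 10.3, 3.37, 9.38 and 8.20 CPM) and CLEC4F- macs (4.92 through 7.91 to 16.5 CPM, n = 6) overlapped with WD ResKCs at 24 weeks. Unlike *Spp1*, *Gpnmb*, *Trem2*, *Sulf2*, *Itgax* and *Lgals3*, its CLEC4F- mac samples did not stand clear of the Kupffer cell samples.

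Levels of different genes can be set side by side only per length. Per kilobase of the union of all annotated exons, CLEC4F- macs held 1428 ± 167 CPM per kb of *Tyrobp* and 765 ± 113 of *Lgals3*, followed by 226 ± 78.2 of *Spp1* and 195 ± 48.3 of *Gpnmb* (SD, n = 6). The other 5 genes lay between 5.18 (*Vsig8*) and 62.0 CPM per kb (*Trem2*). In SD ResKCs at 24 weeks *Tyrobp* (2217) and *Lgals3* (429) were again the highest and *Trem2* came next (7.23), while *Spp1* (1.18) and *Gpnmb* (0.333) were at about the level of *Sulf2* (1.36) or below it. Exon unions include rarely used exons, so these levels are too low for genes with many annotated transcripts.

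**Figure D2:**
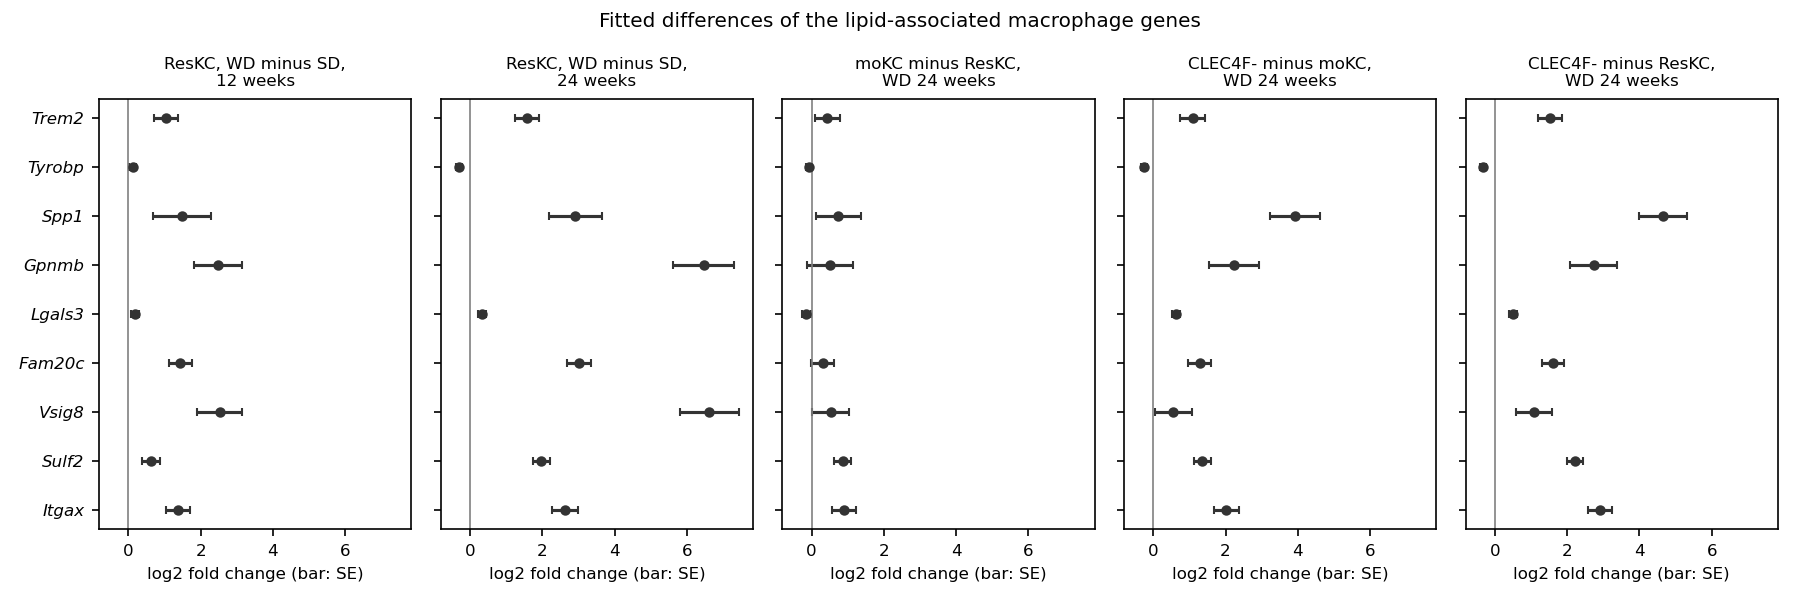
Fitted log2 fold change of each lipid-associated macrophage gene (point) with its standard error (bar) in 5 comparisons from 1 fit over all 35 samples. *Gpnmb* (6.47) and *Vsig8* (6.63) stand farthest to the right for WD against SD at 24 weeks, and *Spp1* (4.65) for CLEC4F- macs against WD ResKCs. The *Vsig8* value at 24 weeks rests on 3 reads in the SD group.

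The first comparison asked what 24 weeks of WD did to ResKCs. In bulk samples a higher level can come from more cells with a transcript or from more transcript in each cell, and these cannot be told apart. *Gpnmb* had a fitted log2 fold change of 6.47 (SE 0.84), *Fam20c* 3.01 (SE 0.33), *Spp1* 2.92 (SE 0.73), *Itgax* 2.63 (SE 0.35), *Sulf2* 1.98 (SE 0.24) and *Trem2* 1.58 (SE 0.34), all as WD minus SD. For *Vsig8*, 352 reads in the 6 WD libraries stood against 3 in the 6 SD libraries. On TMM-scaled library sizes the ratio was 122, and it rests on those 3 reads. WD replicate 6 alone held 131 of the 352. *Lgals3* (0.34, SE 0.11) and *Tyrobp* (-0.31, SE 0.09) differed least. By the rule of an adjusted p under 0.05, 8 of the 9 genes were past it as higher, beside 4.84% of all genes tested, and *Tyrobp* as lower, beside 3.87%. Samples did not overlap for 6 of the 9, all higher in WD, beside 2.19% of all genes; *Spp1*, *Lgals3* and *Tyrobp* overlapped.

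Without the second naming scheme, 3 WD samples stood against the 6 SD samples, and the difference of mean log2 CPM had the same sign for 9 of 9 genes. *Gpnmb* differed there by 5.90 on the log2 scale (6.14 over all samples), *Spp1* by 2.86 (3.16) and *Trem2* by 1.35 (1.65). The summed level of 10 immediate-early and heat-shock genes moved with diet at 24 weeks, from 2587 to 13824 CPM in SD samples and from 1050 to 4945 CPM in WD samples. With the mean log2 level of that list as a covariate, the fitted values were 5.46 for *Gpnmb*, 2.71 for *Spp1*, 1.49 for *Trem2*, 0.27 for *Lgals3* and -0.30 for *Tyrobp*. The marker sums of cell types moved with diet as well. Kupffer cell markers had a median of 35418 CPM in SD and 31426 CPM in WD samples, and monocyte markers ran from 188 to 245 CPM (median 216) in SD and from 243 to 857 CPM (median 293) in WD samples. Their part in the members' differences was not tested. Replicate 6 of the WD samples was the highest for 8 of the 9 genes, and without it the WD mean fell to 8.77 ± 3.86 CPM for *Spp1* (from 14.8), 129.9 ± 87.4 for *Gpnmb* (from 191) and 84.8 ± 14.0 for *Trem2* (from 107; SD, n = 5).

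At 12 weeks the same diet comparison gave smaller positive values for 8 of the 9 genes, and for *Tyrobp* a value on the other side of 0. The fitted log2 fold change was 2.53 (SE 0.63) for *Vsig8*, 2.47 (SE 0.67) for *Gpnmb*, 1.49 (SE 0.79) for *Spp1* and 1.44 (SE 0.32) for *Fam20c*. *Itgax* (1.37, SE 0.34), *Trem2* (1.04, SE 0.33) and *Sulf2* (0.63, SE 0.24) followed, while *Lgals3* (0.19, SE 0.11) and *Tyrobp* (0.12, SE 0.09) lay near 0. SD and WD samples overlapped for all 9 genes (0.283% of all genes did not overlap as higher in WD). By edgeR none of the 9 was past the rule, beside 0.0373% of all genes in either direction. At an unadjusted p under 0.05 the count was 6, beside 1172 of all 13421 genes. DESeq2 put 3 of the 9 past the rule and limma-voom 0. Over all genes, calls ranged from 0 to 229 in the other settings, so DESeq2 called at most 229 of 13421. Its exact share is not given here, and nothing is read from the 3.

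The SD samples at 12 weeks were uneven. Replicate 7 held the highest value of 7 of the 9 genes, including 36.5 CPM of *Gpnmb*, 22.0 CPM of *Fam20c* and 15.5 CPM of *Itgax*, and it held 1384 CPM of the immediate-early and heat-shock list, the lowest of its group, and 2960.4 CPM of hepatocyte markers, the highest. The part of these levels was not tested. Without it, the SD mean was 4.10 ± 5.43 CPM for *Gpnmb* (from 8.73), 8.27 ± 2.51 for *Fam20c* (from 10.2) and 6.44 ± 1.32 for *Itgax* (from 7.73; SD, n = 6). Within the first naming scheme, 5 WD samples stood against 3 SD samples, and *Gpnmb* differed by 4.88 on the log2 scale (3.73 over all samples), *Fam20c* by 1.99 (1.48) and *Vsig8* by 2.89 (2.21), whereas *Spp1* differed by 0.15 (1.25). The signs of all 9 were those over all samples, and the other 5 genes moved by less than *Fam20c*. There *Gpnmb* held 0.443, 2.41 and 2.07 CPM under SD and at least 17.4 CPM under WD. The 4 SD samples of the second scheme, left out there, held 14.7, 4.60, 0.356 and 36.5 CPM. This set of samples was chosen after seeing the data. The difference between both diet effects, as 24 minus 12 weeks, was 4.10 (SE 1.15) for *Vsig8*, 4.00 (SE 1.04) for *Gpnmb*, 1.34 (SE 0.34) for *Sulf2*, 1.57 (SE 0.46) for *Fam20c* and -0.42 (SE 0.12) for *Tyrobp*. *Spp1* (1.43, SE 1.10), *Itgax* (1.26, SE 0.49), *Trem2* (0.54, SE 0.47) and *Lgals3* (0.15, SE 0.15) were positive too. By edgeR none of the 9 was past the rule for that difference, beside 0.283% of all genes. Here 6 were at an unadjusted p under 0.05, beside 1886 of all 13421 genes. DESeq2 put 3 past the rule as higher and 1 as lower, and limma-voom put 0. Over all genes, calls ranged from 0 to 192 in the other settings, so DESeq2 called at most 192 of 13421. Its exact share is not given here either.

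The next comparisons asked how the sorted populations of livers under WD differed. Against WD ResKCs, CLEC4F- macs had a fitted log2 fold change of 4.65 (SE 0.66) for *Spp1*, 2.92 (SE 0.33) for *Itgax*, 2.73 (SE 0.66) for *Gpnmb* and 2.22 (SE 0.23) for *Sulf2*. Smaller values were found for *Fam20c* (1.60, SE 0.30), *Trem2* (1.52, SE 0.33), *Vsig8* (1.08, SE 0.49) and *Lgals3* (0.49, SE 0.11), and *Tyrobp* was lower (-0.33, SE 0.09). The order of the genes was thus not that of the diet comparison, where *Vsig8* and *Gpnmb* led. Past the rule as higher were 7 of 9, beside 16.1% of all genes, and 1 as lower, beside 17.0%. The samples did not overlap for 7 of 9 (7.18% of all genes as higher), the exceptions being *Vsig8* and *Tyrobp*. The diet and population comparisons share the WD ResKC samples. On the scale of mean log2 CPM, WD ResKCs lay at 66.4% of the distance from SD ResKCs at 24 weeks to CLEC4F- macs for *Gpnmb* and at 64.9% for *Fam20c*. The same share was 50.4% for *Trem2*, 46.8% for *Sulf2*, 46.4% for *Itgax* and 38.6% for *Spp1*, and for *Vsig8*, with 3 reads in the SD group, it was 80.0%.

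Against moKCs, CLEC4F- macs had fitted values of 3.92 (SE 0.69) for *Spp1*, 2.23 (SE 0.69) for *Gpnmb*, 2.02 (SE 0.34) for *Itgax* and 1.36 (SE 0.24) for *Sulf2*. *Fam20c* (1.29, SE 0.32), *Trem2* (1.09, SE 0.35), *Lgals3* (0.64, SE 0.11) and *Vsig8* (0.55, SE 0.51) were lower in this order, and *Tyrobp* had -0.25 (SE 0.09). The rule was passed as higher by 7 of 9, beside 7.09% of all genes, and 6 of 9 did not overlap, beside 3.96%. Between moKCs and WD ResKCs all 9 genes overlapped (1.04% of all genes did not, as higher), and *Itgax* (0.90, SE 0.33) and *Sulf2* (0.86, SE 0.23) had the largest fitted values. The other 7 lay between -0.14 (*Lgals3*, SE 0.11) and 0.73 (*Spp1*, SE 0.62), and *Sulf2* alone was past the rule, beside 0.991% of all genes as higher.

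One moKC library stood apart. Replicate 1 held the lowest value of the group for 9 of 9 genes, with 1.74 CPM of *Spp1*, 33.0 CPM of *Gpnmb* and 53.0 CPM of *Trem2*. Its summed immediate-early and heat-shock level (10587 CPM) was the highest of the moKCs. So were its endothelial (1597 CPM, against 695 to 1118 CPM in the other 4 samples), hepatocyte (2612 against 1354 to 1941 CPM), monocyte (392 against 168 to 303 CPM), stellate cell (188 against 81.0 to 158 CPM) and dendritic cell sums (127 against 39.9 to 110.1 CPM). Its Kupffer cell marker sum (24349 CPM) was the median of the group. The part of these levels in the result was not tested. Without this library the moKC means were 30.4 ± 1.91 CPM for *Spp1* (from 24.7), 330.1 ± 124 for *Gpnmb* (from 271), 167 ± 37.9 for *Trem2* (from 144) and 82.1 ± 29.8 for *Itgax* (from 70.2; SD, n = 4). The fitted value of moKCs against WD ResKCs without any 1 sample ranged from 0.53 to 1.48 for *Spp1*, from 0.19 to 1.06 for *Gpnmb*, from 0.29 to 0.76 for *Trem2* and from 0.08 to 0.53 for *Fam20c*. Within the first naming scheme (2 moKC and 3 ResKC samples) the difference of mean log2 CPM of *Spp1* had the other sign, -0.15 (0.69 over all samples), and within the second (3 and 3) it was 1.15; the other 8 genes kept their sign in both.

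**Figure D3:**
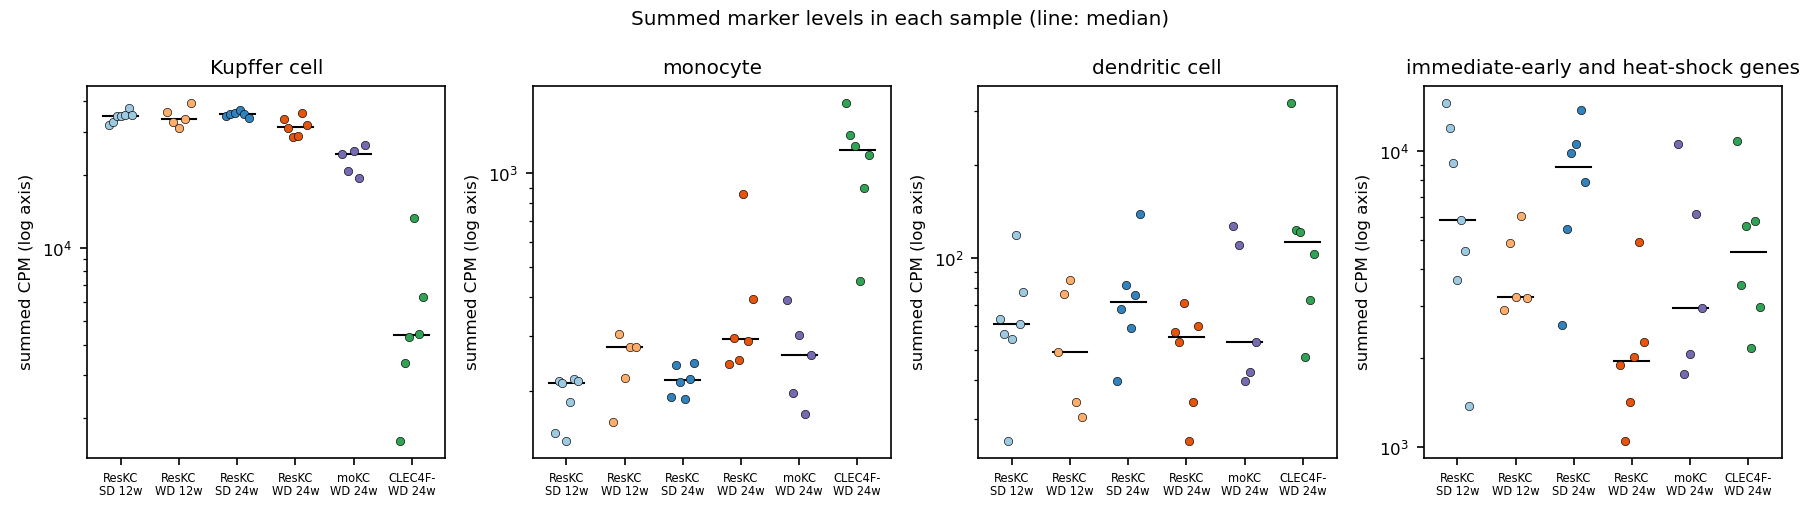
Summed CPM (log axis) of 10 Kupffer cell, 8 monocyte and 8 dendritic cell markers and of 10 immediate-early and heat-shock genes in each sample, with the median of each group as a line. Kupffer cell markers ran from 1604 to 13313 CPM in CLEC4F- macs and from 28638 to 35918 CPM in WD ResKCs at 24 weeks.

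Marker genes followed the sort. The 10 Kupffer cell markers summed to 31197 to 39397 CPM in ResKCs at 12 weeks, 34114 to 36828 CPM in SD and 28638 to 35918 CPM in WD ResKCs at 24 weeks, 19336 to 26342 CPM in moKCs and 1604 to 13313 CPM in CLEC4F- macs. The highest of the CLEC4F- macs was replicate 4, which also held the lowest monocyte marker sum (451 CPM, against 894 to 1683 CPM in the other 5) and the lowest value of 7 of the 9 genes. Without it, CLEC4F- macs held 407 ± 111 CPM of *Spp1* (from 373), 1369 ± 215 of *Gpnmb* (from 1267) and 306 ± 31.8 of *Itgax* (from 285; SD, n = 5). The 6 neutrophil markers summed to 74.0 to 123 CPM in CLEC4F- macs and 71.5 to 97.5 CPM in WD ResKCs at 24 weeks. Among them *Ly6g* was at 0 in every group. Hepatocyte markers summed to 434 to 3037 CPM over all samples. The part of these levels in the members' differences was not tested.

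**Figure D4:**
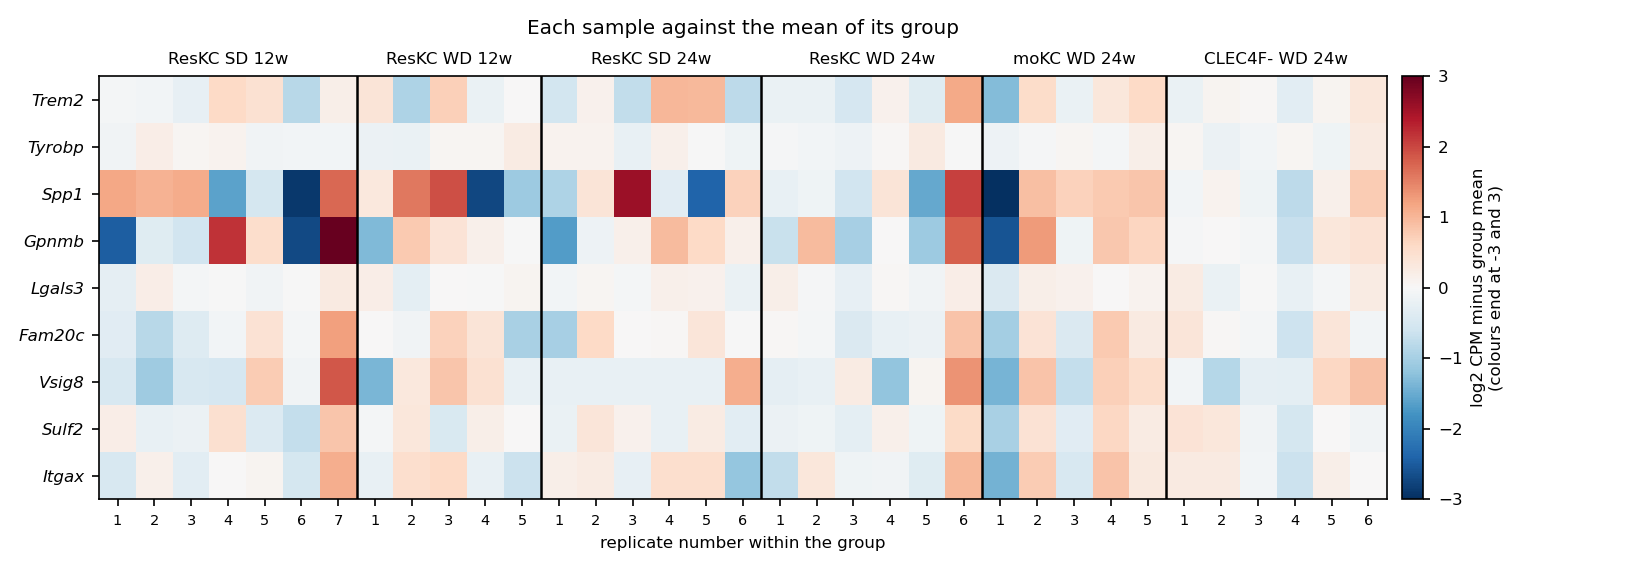
Each sample's log2 CPM minus the mean of its group, for the 9 genes (rows) and 35 samples (columns, by replicate number). Red is above the group mean and blue below it. Columns of 1 colour, as in moKC replicate 1, WD 24-week replicate 6 and SD 12-week replicate 7, show samples in which most of the genes deviated together.

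Within groups most of the genes deviated together. After removal of group means, Spearman's rho between pairs of genes over the 35 samples ranged from 0.155 to 0.736 for the 28 pairs without *Tyrobp*, with a median of 0.427. *Gpnmb* with *Itgax* was the highest pair (0.736), followed by *Fam20c* with *Itgax* (0.645), *Trem2* with *Itgax* (0.634) and *Fam20c* with *Vsig8* (0.634). *Spp1* with *Trem2* (0.222) and *Lgals3* with *Vsig8* (0.155) were low. *Tyrobp* gave values from -0.139 with *Fam20c* to 0.434 with *Lgals3*, and its rho with *Trem2* was 0.300. These values describe samples that share libraries, depth and sort, and they carry no p-value. No values of other gene pairs are given beside them, so they do not show that these genes stand out.

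Over all 35 samples, which fall into groups, the genes that ordered the samples most like each member recurred for 5 of the 9. *Cd9*, a tetraspanin of the same program, ranked first for *Trem2* (rho 0.948), *Gpnmb* (0.983) and *Itgax* (0.961) and second for *Fam20c* (0.955). *Ccl9*, a chemokine gene, ranked first for *Fam20c* (0.972) and among the first 3 for *Trem2*, *Gpnmb*, *Sulf2* and *Itgax*. *Cd63* was nearest to *Sulf2* (0.961), *Il7r* to *Spp1* (0.944), *Dcstamp* to *Vsig8* (0.941) and *Anxa4* to *Lgals3* (0.911). The 3 nearest genes of *Tyrobp*, *Spp1*, *Lgals3* and *Vsig8* were shared with no other member. Nearest to *Tyrobp* were *Atp6v1f* (0.9499), *Nenf* (0.946) and *Blvrb* (0.935).

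**Figure D5:**
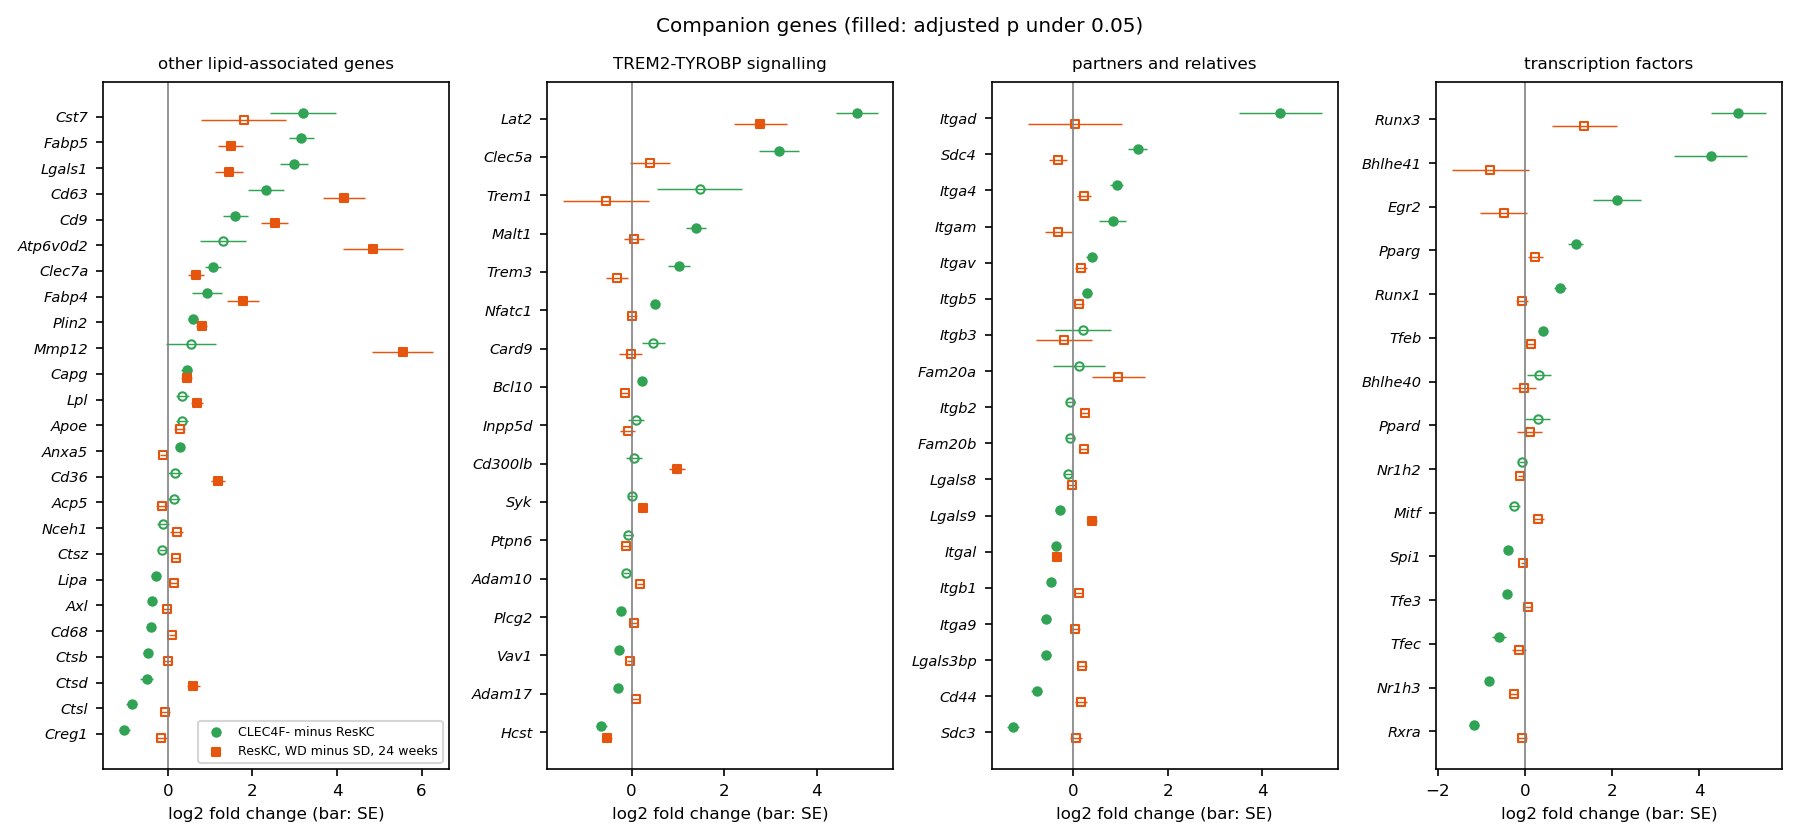
Fitted log2 fold changes (points) with standard errors (bars) of companion genes in 4 lists, for CLEC4F- macs against WD ResKCs (green circles) and WD against SD ResKCs at 24 weeks (orange squares). Filled points have an adjusted p under 0.05 (edgeR). Transcription factors were past the test in 11 of 15 cases in the first comparison, beside 33.0% of all genes. In the second it was 0 of 15, beside 1169 of all 13421 genes.

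Companion genes were tested with edgeR's quasi-likelihood test, and adjusted p-values were computed over all 13421 genes. The lists were chosen with earlier results of these data known, so counts and medians per list are a description. In ResKCs at 24 weeks of WD, 13 of 25 other genes of the lipid-associated program rose and none fell. Of all genes tested, 4.84% rose and 3.87% fell. The median log2 fold change was 0.60 for the list, beside 0.00 for all genes tested. *Mmp12*, encoding macrophage elastase, rose from 11.1 ± 4.20 to 518 ± 275 CPM (log2 fold change 5.55, SE 0.73, adjusted p = 8.51e-06). *Atp6v0d2*, a subunit of the proton pump, rose from 0.944 ± 0.763 to 27.2 ± 23.6 CPM (4.84, SE 0.71, adjusted p = 4.08e-05), although limma-voom gave an adjusted p of 0.0745. The tetraspanin genes *Cd63* (4.28 ± 1.03 to 77.0 ± 43.8 CPM; 4.17, SE 0.49, adjusted p = 2.93e-06) and *Cd9* (18.1 ± 5.21 to 104 ± 43.6 CPM; 2.52, SE 0.32, adjusted p = 6.17e-06) rose too (SD, n = 6 each). None of these 4 genes overlapped between the diets. Among the other 9 that rose were the fatty acid binding protein genes *Fabp4* and *Fabp5*, *Cd36*, *Plin2*, *Lpl* and *Lgals1*.

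The TREM2-TYROBP list moved less as a whole. Of 17 genes that passed the filter (18 listed, *Siglech* did not pass), 3 rose and 1 fell with WD at 24 weeks. Beside them stand 4.84% and 3.87% of all genes. The median of the list was 0.02. *Lat2*, an adaptor that follows SYK, rose from 0.229 ± 0.150 to 1.61 ± 1.07 CPM (2.78, SE 0.58, adjusted p = 0.00271), but limma-voom (adjusted p = 0.269) and the first naming scheme alone (0.155) did not make this call. *Cd300lb*, an activating receptor that can pair with TYROBP, rose from 118 ± 35.6 to 233 ± 37.8 CPM (0.99, SE 0.17, adjusted p = 0.000318). *Hcst*, which encodes DAP10, the other adaptor of TREM2, fell from 33.7 ± 4.50 to 23.3 ± 1.97 CPM (-0.53, SE 0.12, adjusted p = 0.0041), with overlap. *Syk* rose from 382 ± 28.7 to 455 ± 51.7 CPM (0.25, SE 0.08, adjusted p = 0.0494; SD, n = 6 each). The *Syk* call was lost without SD replicate 1, 2, 3, 4 or 5 or WD replicate 1, 4, 5 or 6 (adjusted p up to 0.125).

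Among 18 binding partners and relatives that passed the filter (19 listed; *Sulf1* did not pass), *Lgals9*, encoding galectin-9, rose from 291 ± 27.9 to 384 ± 29.8 CPM (0.40, SE 0.10, adjusted p = 0.00888). *Itgal*, the alpha subunit of LFA-1 and a relative of *Itgax*, fell from 1092 ± 30.6 to 854 ± 52.8 CPM (-0.35, SE 0.09, adjusted p = 0.00929; SD, n = 6 each). *Lgals9* and *Itgal* were the only calls of this list, beside 4.84% of all genes as higher and 3.87% as lower. Neither call held with the immediate-early and heat-shock covariate (adjusted p = 0.123 and 0.0833). With diet at 24 weeks, none of 15 transcription factors of lipid and lysosome programs was past the edgeR test. Over all genes, 1169 of 13421 were past it. At an unadjusted p under 0.05 there were 2 of the 15, beside 3331 of all 13421 genes, and DESeq2 called 1. At 12 weeks 1 of 75 list genes was past the test, beside 5 of all 13421 genes. *Lpl*, encoding lipoprotein lipase, had 1387 ± 302 CPM under SD and 2285 ± 137 CPM under WD (0.72, SE 0.14, adjusted p = 0.0474; SD, n = 7 and 5). This call held without SD replicate 7 and was lost without any other single sample of either group (adjusted p up to 0.164). For the difference of both diet effects no list gene passed by edgeR or limma-voom, and DESeq2 called 3. By edgeR 16 were at an unadjusted p under 0.05, beside 1886 of all 13421 genes.

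In CLEC4F- macs against WD ResKCs, 10 of the 25 program genes rose and 7 fell (median 0.33, beside 0.02 for all genes; 33.0% of all genes were past the test). *Cst7*, encoding cystatin F, had the largest fitted value at a low level and with overlap (0.233 ± 0.365 to 2.27 ± 1.84 CPM; 3.20, SE 0.79, adjusted p = 0.00169). Those that rose most without overlap were *Fabp5* (15.7 ± 6.13 to 139.8 ± 43.1 CPM; log2 fold change 3.16, SE 0.29, adjusted p = 4.68e-10), *Lgals1*, encoding galectin-1 (2.98, SE 0.33, adjusted p = 1.06e-08), *Cd63* (2.32, SE 0.42, adjusted p = 5.31e-05) and *Cd9* (1.60, SE 0.30, adjusted p = 8.71e-05). The 7 that fell were *Creg1*, *Ctsl*, *Ctsd*, *Ctsb*, *Cd68*, *Axl* and *Lipa*. They encode mostly lysosomal proteins, among them 3 cathepsins and the lysosomal acid lipase, while *Axl* encodes a receptor for dying cells. The *Lipa* call held in 6 of 12 refits without a single sample, and that of *Fabp4*, which rose, in 4 of 12. The program as listed therefore did not move as 1 block between populations. *Mmp12* and *Atp6v0d2*, which rose most with diet, were not past the test here.

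Signalling genes moved in both directions in the same comparison. *Lat2* rose from 1.61 ± 1.07 to 47.3 ± 18.0 CPM (4.87, SE 0.45, adjusted p = 4.09e-10; SD, n = 6 each) and *Clec5a*, a receptor that uses TYROBP, from 4.01 ± 1.78 to 36.3 ± 12.9 CPM (3.18, SE 0.43, adjusted p = 4.64e-07). *Malt1* (1.40, SE 0.21, adjusted p = 3.43e-06) and *Trem3*, another TYROBP-coupled receptor gene (1.03, SE 0.24, adjusted p = 0.00085), rose too. In all 6 of 17 rose and 4 fell, with a median of 0.10, beside 16.1% and 17.0% of all genes. Among binding partners 6 of 18 rose and 7 fell (median -0.07), beside the same shares. *Itgad*, a neighbour of *Itgax* in the integrin family, rose from 0.125 ± 0.153 to 2.86 ± 1.25 CPM (4.39, SE 0.88, adjusted p = 0.000274). The heparan sulphate proteoglycan genes *Sdc4* and *Sdc3*, whose chains SULF2 acts on, moved in opposite directions. *Sdc4* rose from 24.5 ± 5.28 to 62.9 ± 12.8 CPM (1.36, SE 0.19, adjusted p = 1.07e-06) and *Sdc3* fell from 5912 ± 503 to 2441 ± 632 CPM (-1.28, SE 0.12, adjusted p = 1.02e-09). *Itga4*, part of an osteopontin-binding integrin, rose by 0.92 on the log2 scale (SE 0.14, adjusted p = 5.91e-06). Other listed receptors for osteopontin moved both ways. *Cd44* (-0.78, SE 0.12, adjusted p = 7.59e-06) and the integrin subunit genes *Itga9* and *Itgb1* fell. *Itgav* and *Itgb5* rose, and *Itgb3* was not past the test. The *Itgb5* call held in 4 of 12 refits without a single sample.

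Of the 15 transcription factors 6 rose and 5 fell in CLEC4F- macs against WD ResKCs, with a median of 0.29. Of all genes, 16.1% rose and 17.0% fell. *Runx3* rose from 0.665 ± 0.480 to 19.9 ± 12.0 CPM (4.90, SE 0.64, adjusted p = 2.45e-07), *Bhlhe41* from 0.189 ± 0.221 to 3.71 ± 1.82 CPM (4.26, SE 0.84, adjusted p = 0.00013) and *Pparg* from 37.9 ± 5.73 to 85.1 ± 6.03 CPM (1.17, SE 0.17, adjusted p = 2.18e-06). *Rxra*, the partner of PPAR and LXR, fell from 579 ± 24.2 to 257 ± 73.6 CPM (-1.17, SE 0.12, adjusted p = 1.35e-09), and *Nr1h3* (LXR alpha) fell by 0.82 on the log2 scale (SE 0.09, adjusted p = 7.08e-09). *Mitf*, *Bhlhe40*, *Ppard* and *Nr1h2* were not past the test.

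Against moKCs, 20 of 75 list genes were higher in CLEC4F- macs and 13 lower, beside 7.09% and 9.34% of all genes. *Lat2* (3.74, SE 0.45, adjusted p = 5.21e-07), *Runx3* (4.31, SE 0.66, adjusted p = 1.39e-05), *Fabp5* (2.48, SE 0.30, adjusted p = 6.02e-07), *Lgals1* (2.06, SE 0.34, adjusted p = 3.33e-05), *Sdc4* (1.03, SE 0.20, adjusted p = 0.00035) and *Pparg* (0.98, SE 0.18, adjusted p = 0.000177) were higher with no overlap. *Rxra* (-0.90, SE 0.12, adjusted p = 2.01e-06), *Sdc3* (-0.81, SE 0.13, adjusted p = 1.92e-05) and *Nr1h3* (-0.68, SE 0.09, adjusted p = 2.6e-06) were lower with no overlap. *Cd63* and *Cd9* were higher by 1.52 and 1.26 on the log2 scale (SE 0.44 and 0.32, adjusted p = 0.0144 and 0.00483). Of the TREM2-TYROBP list, *Clec5a* (1.31, SE 0.42, adjusted p = 0.0275), *Malt1* (0.88, SE 0.22, adjusted p = 0.00459) and *Nfatc1*, a transcription factor that acts after SYK (0.42, SE 0.11, adjusted p = 0.00596), were higher and *Hcst* was lower (-0.44, SE 0.12, adjusted p = 0.0114). The *Clec5a* call was lost without moKC replicate 1, 2, 3 or 5 or CLEC4F- replicate 1 or 5, and that of *Hcst* without moKC replicate 1. *Itgal* was lower (-0.40, SE 0.09, adjusted p = 0.00151).

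Between moKCs and WD ResKCs, 4 of 75 list genes were past the test (2.99% of all genes). *Apoe* had 34248 ± 6377 CPM in moKCs and 23733 ± 4158 CPM in WD ResKCs (0.53, SE 0.14, adjusted p = 0.033), and *Clec5a* 14.7 ± 11.7 and 4.01 ± 1.78 CPM (1.87, SE 0.43, adjusted p = 0.0106). *Cd68*, a lysosomal glycoprotein (1205 ± 78.4 and 1569.8 ± 55.3 CPM; -0.38, SE 0.08, adjusted p = 0.00502), and *Sdc3* (4292 ± 543 and 5912 ± 503 CPM; -0.46, SE 0.13, adjusted p = 0.0414) were lower in moKCs (SD, n = 5 and 6). The *Cd68* call held without any single sample. *Clec5a* lost its call without moKC replicate 4 (adjusted p = 0.110). *Apoe* lost it without ResKC replicate 1, 2 or 3 or moKC replicate 2, 4 or 5 (up to 0.126), and *Sdc3* without ResKC replicate 1, 2, 4 or 5 or moKC replicate 2, 3, 4 or 5 (up to 0.138).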

How the data were processed

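Per the labels and the submitters' processing notes, the authors sequenced single-end libraries, aligned reads to mm10 with HISAT2 2.2.0 and deposited raw counts per gene symbol from featureCounts 2.0.0. Annotation, strand setting and treatment of multi-mapping reads are not given in the sources used here. Samples were grouped by title. From the deposited counts, CPM were computed on TMM-scaled library sizes, and genes were kept above 1 CPM in no fewer than 5 samples. The 13421 kept genes were tested with edgeR 4.0.16 (quasi-likelihood test, 1 fit over 6 groups, Benjamini-Hochberg adjustment, threshold 0.05). The fit was tested on simulated data. Total counts of 11568590 to 15163845 set the precision; 3 counts, the floor, correspond to 0.198 to 0.259 CPM. Members and companion lists were chosen with earlier results of these data known. Named from each companion list were up to 4 non-overlapping genes with the largest change per comparison, and every called gene where 5 or fewer were called; a few further called genes were named after their values were seen. For each member the 3 nearest genes by Spearman's rho were listed. Alternatives were DESeq2 1.42.0, limma-voom (limma 3.58.1), unscaled library sizes, all genes unfiltered, covariates, replicate blocks, other sample sets and a fold threshold.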

Additional observations from a re-analysis of the deposited data

Results flagged for a closer look

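Each group of 4 to 10 values was examined for 1 sample far from the others, by the gap to its nearest neighbour as a share of the whole range. Of 54 groups of values (9 genes in 6 groups) 5 held such a sample. The limits are set for about 1 in 20 among independent, normally distributed values. CPM are skewed and the groups share libraries, so the 5 cannot be weighed against that rate. *Spp1* in moKCs had replicate 1 at 1.74 CPM, with a gap of 0.948 of the range, and *Lgals3* had the same library at 672 CPM, with a gap of 0.743. *Fam20c* in WD ResKCs at 24 weeks had replicate 6 at 101 CPM (gap 0.634). *Itgax* in SD ResKCs at 12 weeks had replicate 7 at 15.5 CPM (gap 0.586). *Vsig8* in SD ResKCs at 24 weeks had replicate 6 at 0.216 CPM, which is 3 reads where the other 5 samples held none (gap 1.0).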

How the results depend on the processing

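Refits under other settings or without single samples gave 999 fitted values of the 9 members, many from the same refit. None changed sign, although the difference of mean log2 CPM of *Spp1* between moKCs and ResKCs did, at -0.15 within the first naming scheme. Of the 999 values 992 stayed within the spread between samples, and *Gpnmb*, *Vsig8* and *Sulf2* gave the other 7. No call of a companion gene reversed, and 294 of 2427 values were no longer past the test. List genes called with diet at 24 weeks (19) were 12 with the immediate-early and heat-shock covariate, 12 within the first naming scheme (chosen after seeing the data) and 9 with a log2 fold change over 1 required. At 12 weeks (1) they were 4 with DESeq2, 2 with the naming scheme and 3 with the immediate-early covariate, 7 within the first scheme, and 0 without a filter, with library size alone, with hepatocyte markers as a covariate, with the groups alone or with a fold threshold; leaving out single samples gave 0 to 6. CLEC4F- macs against ResKCs (51) gave 17 within the second scheme and 19 with the fold threshold. For moKCs against ResKCs (4) there were 9 with DESeq2, 2 without a filter, 8 with the scheme covariate, 0 within either scheme and 1 with the fold threshold, and 1 to 6 without single samples. CLEC4F- macs against moKCs (33) gave 17 and 7 within the first and second scheme and 10 with the fold threshold. The difference of both diet effects (0) gave 3 with DESeq2 and 1 with the immediate-early covariate. Fewer samples enter within a scheme; otherwise the cause was not tested.

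Replicate numbers were not taken to pair the samples, since in no comparison was every correlation of same-numbered samples over 0.1 (lowest per comparison -0.357 to 0.024). For CLEC4F- macs against ResKCs all 6 were positive (0.024 to 0.263), 4 of them over 0.1. With the replicate block, counts were 1 for moKCs against ResKCs and 14 for CLEC4F- macs against moKCs. Library size alone moved the median log2 fold change of all genes by up to 0.12 (0.144 for CLEC4F- macs against ResKCs, 0.023 with TMM) and the share of higher calls from 48.6% to 66.7% there, from 43.1% to 61.2% against moKCs, from 55.6% to 77% for diet at 24 weeks and from 23.7% to 63.6% for the difference of both diet effects. Over all genes, calls ranged from 387 to 1504 at 24 weeks (1169), 0 to 229 at 12 weeks (5), 1062 to 4899 for CLEC4F- macs against ResKCs (4433), 31 to 576 for moKCs (401), 142 to 2416 against moKCs (2204) and 0 to 192 for the difference (38). Depth limited *Vsig8*, whose SD samples held at most 14 reads.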
